A study of Rattus norvegicus with 6 samples.

Results

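The genes described here encode the proteins of the cytosolic ribosome. They were chosen by name alone: probe accessions in the array files were matched, version dropped, to RefSeq gene symbols, and symbols of the form Rpl or Rps with a number, plus Rpsa, Rplp0, Rplp1 and Rplp2, were kept without the Rps6k kinases. The RefSeq table holds 220 such symbols, and 81 of them had at least 1 probe among 239 probes. Of the 81 genes, 73 carry a standard ribosomal protein name and 8 carry the name of a copy (Rpl22l1, Rpl27l2, Rpl30l3, Rpl37l1, Rpl39l1, Rpl3l, Rps12l4 and Rps4y2). Standard genes without a matched probe include Rpl26, Rpl37 and Rps9. Each gene is represented by its probe of highest mean signal. After a filter on dim probes 80 of the 81 were tested, since Rpl27l2 was well above background on 0 arrays in either group.

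RNA of the renal cortex was measured in 3 male Sprague-Dawley rats given carbon tetrachloride at 100 mg/kg/day for 4 weeks and in 3 male Sprague-Dawley rats given corn oil for 4 weeks, all 5 weeks old at purchase and kept on a basal diet. Carbon tetrachloride is a chlorinated solvent best known as a liver toxicant. Benzyl acetate appears as the treatment in the design text, but carbon tetrachloride is given by the title, by every treated sample's label and by the protocol, and is the name used here. Each rat gave 1 single-colour Agilent array, so 3 arrays a group limit the precision of every value. Carbon tetrachloride replicate 3 was alone on slide 2 and in scan 2, and the other 5 arrays shared slide 1 and scan 1, with the treated ones in array row 2 and the corn oil ones in row 1. All 9 markers of cortical tubule and glomerulus (Lrp2 among them) were well above background on all 6 arrays. Values are on a log2 scale, with the signal set relative to the 75th percentile of its own array, and a difference is carbon tetrachloride minus corn oil on that scale.

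A ribosome is built from rRNA and a small and a large subunit's set of proteins, each needed in about equal number. Their mRNAs begin with a terminal oligopyrimidine tract, a C followed by a run of C and T, through which mTORC1 and the RNA-binding protein LARP1 set how strongly they are translated when nutrients and growth signals change. Free ribosomal proteins such as Rpl5 and Rpl11 bind Mdm2 and so raise p53 when ribosome assembly fails. In kidney and other tissues several of these genes serve as reference genes for quantitative PCR. The arrays measure mRNA level and not translation.

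The sequence around the start of transcription is shown for 9 members because the pyrimidine tract is what most standard genes have in common outside the measured signal. The windows come from RefSeq promoters on GRCr8, where each holds 20 bases before the annotated start and the 10 bases from the start on. Capitals mark a C followed by at least 4 pyrimidines that begins within 5 bases of the start. The base before the capitals was not restricted, so a run of pyrimidines can begin further upstream, as in Rpl14.
Rpl10 (chrX:157205830-157205859, plus strand): atgcgcaggcgtgggagcgtCTCTTTTCCT
Rpl14 (chr8:129163600-129163629, plus strand): cggcagggcgggccctctccCTTCTCgctg
Rpl19 (chr10:83519044-83519073, plus strand): gagcccgcgaccagcaagctCTTTCCTTTC
Rps7 (chr6:50999436-50999465, minus strand): tgttctcgcgagagctgtgtCTCTTTCTaa
Rplp0 (chr12:46718381-46718410, minus strand): ctggtgaccgcaccgcacttCTCTCgccag
Rplp1 (chr8:71290863-71290892, minus strand): tgcgcgcaggcgcatgtgatCCTTTCCTCa
Rpl39 (chrX:121195887-121195916, minus strand): cagcgtcttctaatcgcgttCTTCCggcct
Rpsa (chr8:128728859-128728888, plus strand): cccgtcctttccgcgctaccctggaacggg
Rpl39l1 (chr10:5966612-5966641, minus strand): ttttaactgccaggccgtcccgctatcctg

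The promoter table held 66 entries for 65 members, with 2 entries for Rps27a. A C at the annotated start followed by at least 4 pyrimidines was found in 23 of 60 entries of standard genes (38.3%). The same held for 0 of 6 copies and for 2.63% of all 33469 promoters. Such a stretch beginning within 5 bases of the start was found in 38 of the 60 (63.3%), against 17.0% of all promoters. Rpl10, Rpl14, Rpl19, Rps7, Rplp0, Rplp1 and Rpl39 have such a stretch from the start on, though pyrimidines also precede it in several of these windows. No such stretch begins within 5 bases of the start in the windows of Rpsa and of the copy Rpl39l1. The motif CGGAAG, a core sequence of sites of ETS-family factors, was searched on both strands of the 300 bases from 250 before to 50 after the start. It was found in 33 of 60 standard entries (55%) and in 16.6% of all promoters, and on the opposite strand it reads CTTCCG, which can overlap the tract. These matches describe letters in a window and do not show a site in use.

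No difference in ribosomal protein mRNA between carbon tetrachloride and corn oil was detected in the renal cortex, and nearly all estimates were small. In the limma fit across 31193 transcripts with Benjamini-Hochberg adjustment, 0 of 80 members passed an adjusted p of 0.05, where the share over all transcripts was 0.00321% (1 transcript). At an unadjusted p under 0.05 there was 1 member, the copy Rpl39l1, against 6.3% of all transcripts. This copy passed the filter on dim probes through the corn oil arrays alone. Of the 73 standard genes 26 were higher and 47 lower by any amount, with a median difference of -0.01 and a range of -0.17 (Rpl19) to 0.13 (Rpl10). The median over all transcripts was 0.01. The smallest adjusted p among the standard genes was 0.829. In bulk tissue fewer cells of a type and less RNA per cell cannot be told apart.

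The intervals give how large a difference these arrays leave room for. The 95% interval of the difference lay within 0.25 log2 of 0, which is 1.19-fold, for 54 of 73 standard genes (74.0%). The same held for 48.9% of 2491 other transcripts at least as bright as the dimmest standard gene. That set was bounded by the dimmest gene only and was not matched in brightness to the standard genes, which limits each comparison with it. An estimate under 0.1 log2 in size was found for 68 of 73 standard genes (93.2%), against 75.8% of those other bright transcripts. The median pooled SD within a group was 0.0677 log2 for the standard genes and 0.078 log2 for the other bright transcripts. For the other 19 standard genes the interval leaves room for a difference beyond 0.25 log2. Rpl19, Rps24 and Rps18 are among them, and so are Rpl10, Rps21, Rps7, Rpl14 and Rps25. The intervals of Rps21, Rps7, Rpl14 and Rps25 were not wide, with SEs from 0.0639 to 0.0674 beside a median of 0.0734 over the standard genes.

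**Figure D1:**
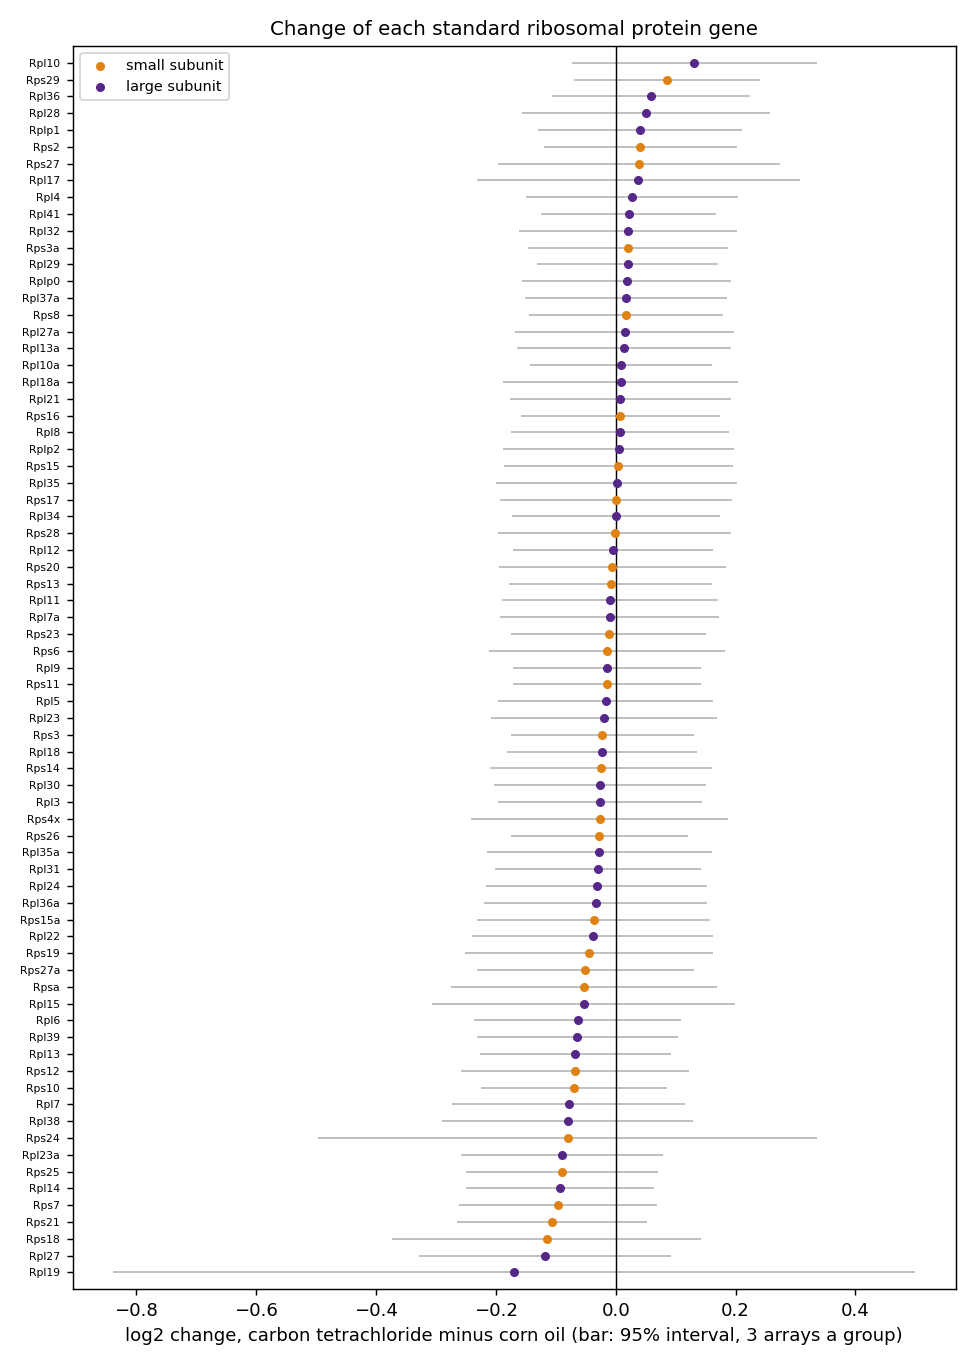
Log2 change, carbon tetrachloride minus corn oil, of each of 73 standard ribosomal protein genes with its 95% interval from limma (3 arrays a group), coloured by subunit. Points run from -0.17 for Rpl19 to 0.13 for Rpl10, and every interval spans 0.

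**Figure D2:**
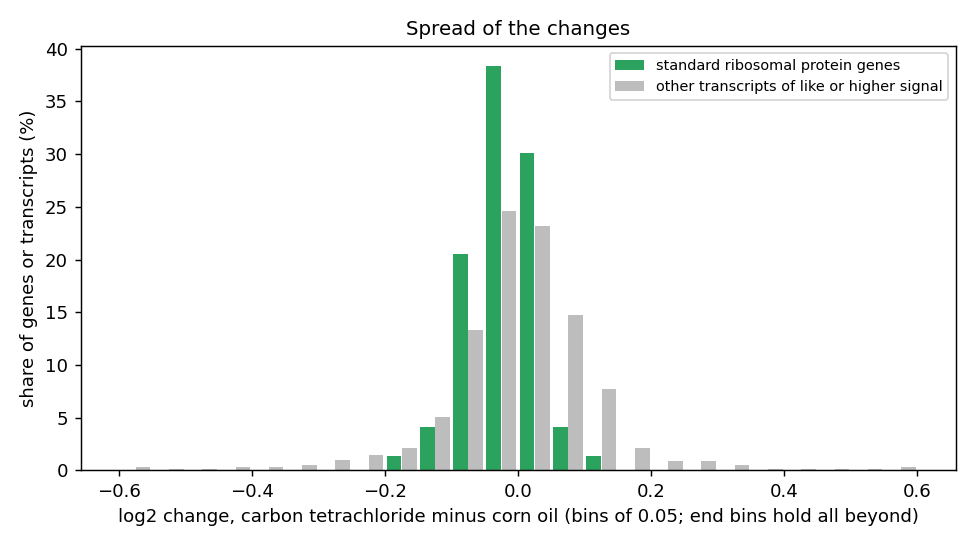
Share of genes by log2 change in bins of 0.05, with the end bins holding all beyond. Shown are 73 standard ribosomal protein genes and 2491 other transcripts at least as bright as the dimmest of them, not matched in brightness. The ribosomal protein genes lie close around 0, with 93.2% under 0.1 in size against 75.8% of the others.

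The small subunit genes had a median difference of -0.02, with 7 higher and 22 lower of 29. The large subunit genes had a median of -0.01, with 19 higher and 25 lower of 44. In each of these classes 0 members passed the adjusted p, and 0 standard genes had an unadjusted p under 0.05.

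Whole arrays differed within a group as much as between groups. Relative to the corn oil mean of each gene, the median deviation of the 73 standard genes was -0.05, 0.05 and -0.03 log2 in carbon tetrachloride replicates 1 to 3, against 0.05, -0.01 and -0.05 log2 in corn oil replicates 1 to 3. The number of the 73 genes above their corn oil mean was 11, 53 and 24 in the treated rats, against 69, 24 and 6 in the corn oil rats. Carbon tetrachloride replicate 2 and corn oil replicate 1 were therefore high for most ribosomal protein genes, and carbon tetrachloride replicate 1 and corn oil replicate 3 were low. The other bright transcripts moved less, by -0.02, 0.0022 and 0.03 log2 in the treated rats and by 0.02, -0.0014 and -0.02 log2 in the corn oil rats. In carbon tetrachloride replicate 3 they lay on the opposite side, since 59.9% of them but 32.9% of the ribosomal protein genes were above the corn oil mean. Genes of 1 array share its labelling and scaling, so these counts are not independent observations.

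The 73 standard genes made up 3.21%, 3.42% and 3.18% of the summed signal of all probes on the treated arrays, against 3.38%, 3.30% and 3.24% for corn oil. The means were 3.27% ± 0.13 and 3.31% ± 0.0694 (SD, n = 3 each), closer together than the spread between rats. Because the whole set moves from rat to rat, the sign of its small median rests on single arrays. The median over the 80 members was -0.02, and it was 0.01 without carbon tetrachloride replicate 1 and 0.01 without corn oil replicate 1. The share of members lower was 65.0% with all arrays, 41.2% without carbon tetrachloride replicate 1 and 38.8% without corn oil replicate 1. It was 83.8% without carbon tetrachloride replicate 2 and 81.2% without corn oil replicate 3.

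**Figure D3:**
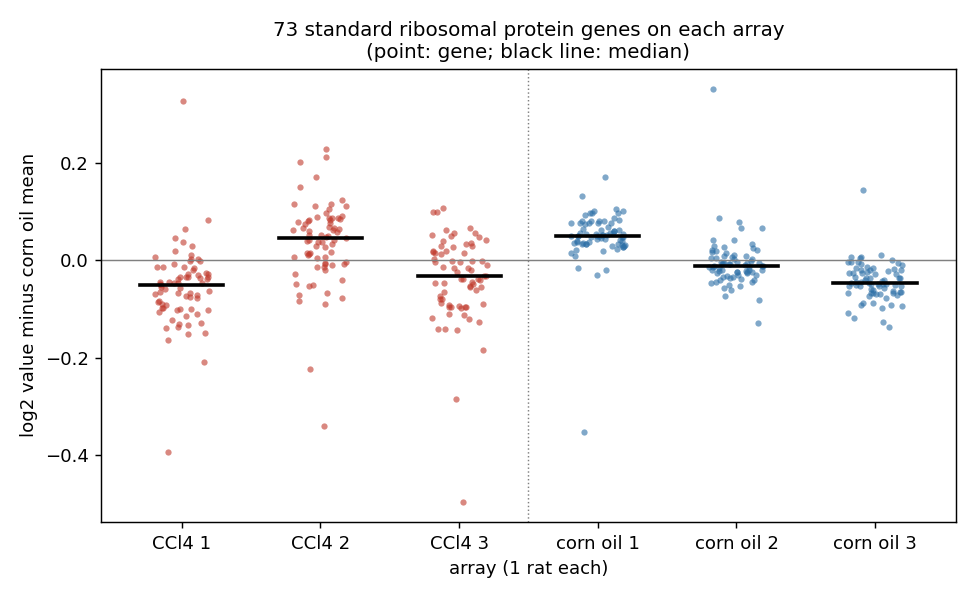
Deviation of each of 73 standard ribosomal protein genes from its corn oil mean (log2) on each of 6 arrays, with treated arrays in red, corn oil arrays in blue and the median as a black line. Medians run from -0.05 to 0.05 in both groups, and most genes of an array lie on the same side of 0.

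Groups that do not overlap were counted as a description. Rps29 was the only member with all treated values above all corn oil values, 1 of 80, while 7.54% of all transcripts had that pattern. All treated values lay below all corn oil values in 5 of 80 members, namely Rpl39l1, Rps21, Rpl14, Rps7 and Rps25, against 5.27% of all transcripts. The count of 6 in both directions was 12, 17 and 9 without carbon tetrachloride replicates 1, 2 and 3. It was 12, 7 and 16 without corn oil replicates 1, 2 and 3. Smaller groups overlap less often, and the share of all transcripts is not given for them. These counts are therefore not read as a result about the members.

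Rps29, a zinc-binding protein of the small subunit, had 8.07, 8.13 and 8.13 in the treated rats, against 8.06, 7.98 and 8.03 in the corn oil rats. The lowest treated value and the highest corn oil value nearly touch. The difference was 0.09 ± 0.06 (SE), with an adjusted p of 0.836 in limma. Its other probes differed by 0.04 and 0.06, with overlapping groups.

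Rps21, which in yeast helps the small subunit to mature, had 6.15, 6.24 and 6.22 in the treated rats, against 6.35, 6.29 and 6.29 in the corn oil rats. Its difference of -0.11 ± 0.06 (SE) had an adjusted p of 0.829 in limma. Rpl14, a large subunit protein, had 7.09, 7.15 and 7.15, against 7.27, 7.21 and 7.19 with corn oil. The groups are separate but by no more than a few hundredths of a log2 unit, and the difference was -0.09 ± 0.06 (SE). Rps7, a small subunit protein that also binds Mdm2, had 6.10, 6.13 and 6.09, against 6.18, 6.28 and 6.15 with corn oil. Its difference of -0.10 ± 0.07 (SE) had an adjusted p of 0.835 in limma. Rps25, which many viral internal entry sites need for initiation, had 4.58, 4.63 and 4.56, against 4.74, 4.65 and 4.65 with corn oil. In both Rps21 and Rps25 corn oil replicate 1 was the highest array, the array on which most members were high. The second probes of Rpl14, Rps7 and Rps25 differed by -0.07, -0.01 and -0.08, and on each of them the groups overlap. Rps21 had 1 probe.

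The acidic stalk proteins, which recruit the factors of translation to the large subunit, showed overlapping groups. Rplp0 had 8.33, 8.46 and 8.39 in the treated rats, against 8.44, 8.35 and 8.33 in the corn oil rats, a difference of 0.02 ± 0.07 (SE). Rplp1 had 8.51, 8.64 and 8.56, against 8.55, 8.56 and 8.47 with corn oil, a difference of 0.04 ± 0.07. Rplp2 had 7.53, 7.67 and 7.45, against 7.56, 7.52 and 7.55 with corn oil, a difference of 0.0047 ± 0.079. All 3 were highest in carbon tetrachloride replicate 2 among the treated rats.

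Rpl10, an X-linked gene whose protein joins the large subunit late in assembly, had the highest estimate among the standard genes. Its values were 7.34, 7.51 and 7.38 in the treated rats, against 7.39, 7.24 and 7.21 in the corn oil rats. Corn oil replicate 1 lay above 2 treated rats, so the groups overlap, and the difference was 0.13 ± 0.08 (SE) with an adjusted p of 0.834 in limma. Its 3 probes gave differences of 0.11, 0.13 and 0.15.

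Rpsa, a small subunit protein also known as the laminin receptor, had 5.54, 5.57 and 5.46 in the treated rats, against 5.56, 5.45 and 5.72 in the corn oil rats. On this brightest probe corn oil replicate 3 was the highest array, unlike most members, and the difference was -0.05 ± 0.09 (SE). The other probes of Rpsa were highest in carbon tetrachloride replicate 3 and differed by 0.02, -0.02 and -0.07. Rps27a, made as a fusion with ubiquitin, had 6.27, 6.36 and 6.31, against 6.44, 6.37 and 6.27 with corn oil, a difference of -0.05 ± 0.07.

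The name rule leaves out some ribosome components. Fau, a fusion of a ubiquitin-like protein with a small subunit protein, had 7.67, 7.80 and 7.65 in the treated rats, against 7.65, 7.58 and 7.52 in the corn oil rats. The treated values were mostly higher but overlap corn oil replicate 1, and the difference was 0.12 ± 0.08 (SE) with an adjusted p of 0.834 in limma. Rack1, a signalling scaffold on the small subunit, differed by -0.0020 ± 0.07.

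Ribosomal proteins that bind Mdm2 or act on p53 were represented by 7 tested members, of which 1 was higher, 6 lower and 0 past the adjusted p, with a median of -0.02. Rpl11 had 6.69, 6.70 and 6.76 in the treated rats, against 6.82, 6.70 and 6.65 in the corn oil rats. Rpl5, its partner on a small rRNA, had 5.53, 5.63 and 5.46, against 5.60, 5.55 and 5.52 with corn oil. The groups overlap for both, with differences of -0.01 ± 0.07 and -0.02 ± 0.07 (SE). The differences were -0.02 for Rpl23, Rps3 and Rps14 and 0.04 for Rps27.

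Members that serve as reference genes were 12, of which 7 were higher, 5 lower and 0 past the adjusted p, with a median of 0.01. Those within 0.03 log2 of 0 were Rplp0, Rplp2, Rpl4, Rpl30, Rpl32, Rpl13a, Rps13 and Rps16. Rpl27 had 6.19, 5.97 and 6.07 in the treated rats, against 6.27, 6.18 and 6.13 in the corn oil rats, a difference of -0.12 ± 0.09 (SE). Its other probes differed by 0.02, -0.01 and -0.12. Rps18 had 7.23, 7.30 and 7.01, against 7.37, 7.34 and 7.18 with corn oil, a difference of -0.12 ± 0.11. Both groups overlap for each gene, and the low value of Rps18 was carbon tetrachloride replicate 3, the array of slide 2.

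Rpl19, another reference gene, varied most among the standard genes. Its brightest probe had 7.69, 7.02 and 6.87 in the treated rats, against 7.01, 7.72 and 7.37 in the corn oil rats. High and low rats occurred in both groups, and the difference was -0.17 ± 0.27 (SE) with an adjusted p of 0.918 in limma. The brightest probe spanned 0.848 log2 over the 6 arrays, while its 3 other probes spanned between 0.125 and 0.182 log2 and gave differences of 0.01, 0.03 and 0.06. The difference of the brightest probe was 0.0063 without corn oil replicate 2.

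The pooled SD within a group was 0.398 log2 for Rpl19, 0.238 log2 for Rps24 and 0.986 log2 for the copy Rpl30l3, the highest among members above background on all arrays. Rps24, mutated in some families with Diamond-Blackfan anaemia, had 5.67, 6.26 and 6.02 in the treated rats, against 6.24, 6.02 and 5.94 in the corn oil rats. Carbon tetrachloride replicate 1 was low, and the second probe of Rps24 did not show this, with 5.31, 5.35 and 5.26 in the treated rats, against 5.42, 5.36 and 5.34 with corn oil. The lowest SDs were 0.0215 log2 for Rpl41, 0.0236 log2 for Rps26 and 0.0323 log2 for Rpl29, all large subunit proteins except Rps26. Rpl41, which encodes a very short peptide, had 8.96, 8.98 and 8.98 in the treated rats, against 8.98, 8.93 and 8.95 in the corn oil rats. A low SD held for the chosen probe only in the case of Rps26, whose second probe had 2.59, 2.73 and 2.03 in the treated rats, against 2.68, 2.48 and 2.65 with corn oil.

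Several probes were available for most members. All 222 probes of the standard genes were well above background on all 6 arrays, and their differences ran from -0.17 to 0.19. Among 68 standard genes with at least 2 such probes, all probes had the same sign in 34 and differed in sign in 34. The median span between the probes of a gene was 0.0613 log2.

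Copies need care, since the files do not state whether a probe separates a copy from its near-identical parent. The 7 tested copies had a median difference of -0.05, with 2 higher, 5 lower and 0 past the adjusted p.

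Rpl39l1 carried the largest estimate among the members. The RefSeq table gives Rpl39l as its other name, a copy of Rpl39 that in mouse is made mainly in male germ cells. It had -7.65, -8.08 and -8.29 in the treated rats, against -1.67, -4.78 and -5.79 in the corn oil rats. The probe stood well above background on all 3 corn oil arrays and on 0 treated arrays, and the corn oil rats spread over several log2 units. The fitted difference of -3.92 ± 1.03 (SE), with an adjusted p of 0.753 in limma, is set against treated values that are not above background and is no measured fold. Against the lowest signal well above background on the treated arrays, the mean level was at least 3.75-fold lower with carbon tetrachloride. That is a bound on means and does not hold for each rat, since corn oil replicate 3 lay close to the limit of -5.99. The bound on the mean was 1.62-fold without corn oil replicate 1 and 6.78-fold without corn oil replicate 3.

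A second probe of Rpl39l1 had -8.27, -8.13 and -8.15 in the treated rats, against -2.47, -5.89 and -7.67 in the corn oil rats. It placed the 3 corn oil rats in the same order, but was well above background on 1 corn oil array only. Corn oil replicate 1 decided the size: without it the fitted difference was -2.72, and with background correction by normexp it was -1.09 with all arrays. Rpl39, the standard gene, had 6.26, 6.39 and 6.34, against 6.44, 6.36 and 6.38 with corn oil, a difference of -0.06 ± 0.07 (SE).

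Rpl30l3 had -0.43, 1.01 and 1.72 in the treated rats, against 1.15, 1.09 and -0.38 in the corn oil rats. Carbon tetrachloride replicate 1 and corn oil replicate 3 were low and the other 4 rats high, so that both groups were split. The difference was 0.14 ± 0.66 (SE), and it turned to -0.33 without carbon tetrachloride replicate 3 and to -0.35 without corn oil replicate 3. It had 1 probe. Rpl30, its parent by name, had 5.67, 5.84 and 5.73, against 5.81, 5.75 and 5.75 with corn oil.

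**Figure D4:**
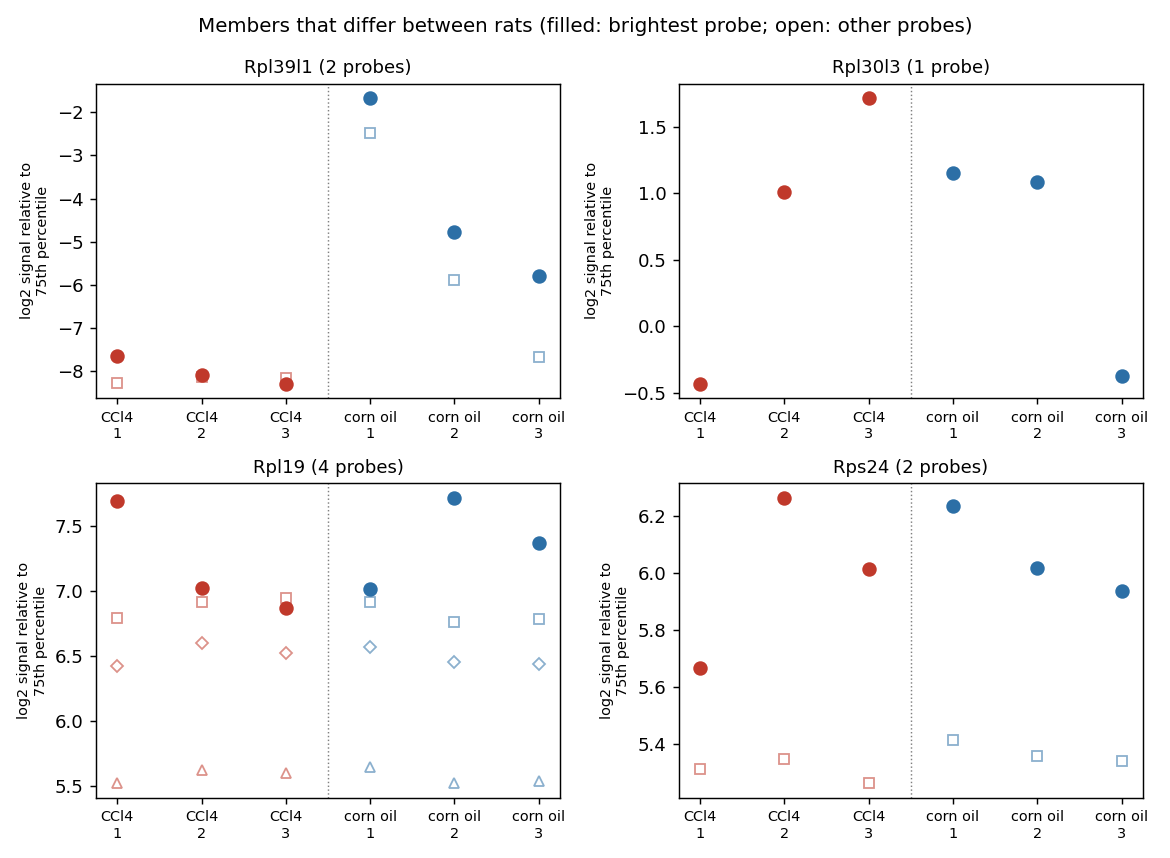
Log2 signal relative to the array's 75th percentile for each probe of Rpl39l1, Rpl30l3, Rpl19 and Rps24 on each array, treated in red and corn oil in blue, with the brightest probe filled. Rpl39l1 is low on all treated arrays and spread over the corn oil ones, whereas Rpl30l3 and the brightest probe of Rpl19 have high and low rats in both groups.

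Rpl3l, which in mouse and human stands in for Rpl3 in heart and skeletal muscle, had -4.10, -4.26 and -3.80 in the treated rats, against -3.97, -3.98 and -3.93 in the corn oil rats. The groups overlap through carbon tetrachloride replicate 3, and the difference was -0.09 ± 0.13 (SE). Without that array it was -0.22 with an unadjusted p of 0.047 and an adjusted p of 0.729 in limma. Rpl3 itself differed by -0.03 ± 0.07.

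Rps4y2 had 3.70, 3.79 and 3.64 in the treated rats, against 3.72, 3.88 and 3.91 in the corn oil rats, a difference of -0.13 ± 0.08 (SE) with overlapping groups. Rps4x, its X-linked partner, had 4.68, 4.76 and 4.91, against 4.78, 4.90 and 4.75 with corn oil. Rps12l4 had -4.39, -4.65 and -4.47, against -4.52, -4.86 and -4.67 with corn oil, a difference of 0.18 ± 0.12, where Rps12 differed by -0.07 ± 0.08. Groups overlap for each of these genes. The remaining copies were Rpl22l1, at -0.05 ± 0.07 beside -0.04 ± 0.08 for Rpl22, and Rpl37l1, at -0.04 ± 0.07, which the RefSeq table also lists under the older name Rpl37. Rpl27l2 was below background throughout, and no fold is given for it.

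Other genes of the ribosome's production line were set beside the members, from lists of known function. None of these lists had a gene past the adjusted p of 0.05 in limma. Of 32 tested genes of RNA polymerases I and III and their factors, which make rRNA and tRNA, 20 were higher and 12 lower, with a median of 0.07. Groups did not overlap for 8 higher genes and for 1 lower gene, Polr1f, where 7.54% of all transcripts were higher and 5.27% lower without overlap. An unadjusted p under 0.05 was found for 4 genes, all higher, beside 6.3% of all transcripts in either direction. Polr3b, the second largest subunit of RNA polymerase III, had -0.80, -0.82 and -0.81 in the treated rats, against -1.02, -1.25 and -1.13 in the corn oil rats. Its groups were clearly apart, with a difference of 0.32 ± 0.08 (SE) and an adjusted p of 0.714. Polr3e, another subunit, had 0.36, 0.36 and 0.50, against 0.21, 0.13 and 0.14 with corn oil, a difference of 0.25 ± 0.07.

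Of 65 tested ribosome assembly factors 36 were higher and 29 lower, with a median of 0.01. The smallest p values were those of Utp4, at -0.29 ± 0.12 (SE), and Utp14a, at -0.14 ± 0.07, both of the small subunit processome. Of 26 other genes listed as bearing the pyrimidine tract 12 were higher and 14 lower, with a median of -0.01. The tract was not looked up in their sequences. They were led by the chaperonin subunit Cct4 at -0.16 ± 0.06 and the filament protein Vim at 0.20 ± 0.09. Of 29 further translation factors 16 were higher and 13 lower, led by Eif2b2 at 0.39 ± 0.13 and the elongation factor kinase Eef2k at 0.37 ± 0.13. Of 67 mitochondrial ribosomal protein genes 29 were higher and 38 lower, with a median of -0.01, led by Mrps22 at -0.16 ± 0.06 and Mrpl50 at -0.17 ± 0.08. The mitochondrial set thus had, like the cytosolic set, a median close to 0.

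Regulators of mTORC1 and of tract-bearing mRNAs were 18, with 11 higher and 7 lower and a median of 0.04. Tsc1, an inhibitor of mTORC1, had -5.02, -5.07 and -5.13 in the treated rats, against -4.80, -4.52 and -4.50 in the corn oil rats. The groups were apart, with a difference of -0.47 ± 0.10 (SE) and an adjusted p of 0.689 in limma. Its signal was dim, not far above -5.99, the mean over the treated arrays of the lowest signal well above background. The size of this difference is therefore uncertain. Mtor had -0.91, -1.04 and -0.93, against -1.16, -1.08 and -1.12 with corn oil, a difference of 0.16 ± 0.07.

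Markers of other cells were measured beside these results. Of 16 tested leukocyte markers 1 was higher, by 1.06, and 15 lower, 7 of them with groups apart (5.27% of all transcripts were lower without overlap), with a median of -0.38 and 0 past the adjusted p. Only 13 of the 16 were well above background on all 6 arrays, and the others passed the filter through 1 group alone. With the filter on all 6 arrays 13 were tested, with a median of -0.28. With normexp the median of the 16 was -0.22. The log2 summed level of the 16 markers was 6.46, 6.45 and 6.27 in the treated rats, against 6.72, 6.76 and 6.29 in the corn oil rats, and Cd5 stood well above background on 0 treated arrays. The smallest p values were those of Cd8b, at -0.98 ± 0.09 (SE, adjusted p of 0.187 in limma), and Cd247, at -0.79 ± 0.08. Of 9 tested red cell and platelet markers 3 were higher and 6 lower, with log2 summed levels of 9.93, 8.89 and 9.69 in the treated rats, against 9.27, 9.78 and 9.54 in the corn oil rats. Slc25a37, at -0.17 ± 0.07, and Pf4, at -0.08 ± 0.11, had the smallest p values among them. Of the 9 tubule and glomerulus markers 7 were higher and 2 lower, with a median of 0.05 and 0 past the adjusted p. Of 8 adrenal and liver markers 2 were bright enough to test, Apoa1 at 0.80 ± 0.24 and Cyp17a1 at -0.16 ± 0.20. The part of these cells in the values of the ribosomal protein genes was not tested.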

How the data were processed

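Per the labels, Cy3-labelled cRNA from total RNA of each rat was read on 1 single-colour Agilent array. The deposited scanner files hold spot intensity, extracted with Agilent Feature Extraction 10.7.1.1 per the file headers (10.7 per the submitters' processing notes), and the processed signal is background-subtracted. Between 68.5% and 72.1% of 61537 probes per array were well above background. The deposited value table is that signal after division by a single factor for each array, within 1% for 94.5% to 97.8% of probes, with column medians of 0.116, 0.115 and 0.111 for carbon tetrachloride replicates 1 to 3 and 0.118, 0.111 and 0.114 for corn oil. It holds 0 columns of other samples.

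From these, values were taken as log2 of the processed signal over the array's own 75th percentile, without 1439 control spots and outlier spots. A probe was kept if every array of either group had it well above background. Accessions were named through RefSeq (GRCr8, names only for the probes, since the array headers give the older build rn4), which matched 28206 probes (45.8%), and the tested probe of highest mean stood for each gene. The comparison used lmFit and eBayes of limma 3.58.1 under R 4.3.3 (two-sided, Benjamini-Hochberg over 31193 transcripts). The fit was tested on simulated data. The labels' design text calls the samples biological replicates.

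The members and lists were chosen with earlier results of these data known. Named are the members of smallest p whose groups do not overlap (up to 5 in each direction), the stalk proteins, Rpsa, Rps27a, copies with their partners, Mdm2-binding and reference genes, the 3 largest and 3 smallest SDs, and 2 genes of smallest p per other list. Rpl10 is described as the highest estimate and Fau and Rack1 as components outside the name rule. Some genes that these rules take are not reported here. Deviations of same-numbered rats from their group means had correlations of -0.0234, -0.0973 and -0.079. These give no sign of a pairing by number but cannot exclude one, since the deviations within a group sum to 0. A probe above background in 1 group only is given as at least N-fold. Alternatives were other background corrections, scalings, filters and probe choices, the deposited table, a trended robust fit, the replicate number or slide as a block, and each array left out.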

Additional observations from a re-analysis of the deposited data

How the results depend on the processing

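The count of 0 members past the adjusted p held in all 20 alternatives, and so did the count of 0 in the other lists over 19 alternatives. The count with an unadjusted p under 0.05 was 1. It was 0 with normexp and the 75th percentile, 0 with normexp and quantile scaling, 0 with the filter on all 6 arrays and 0 for the standard members only, each of which either leaves out Rpl39l1 or lifts its dim signals. It was 2 with the slide block and within slide 1, a fit that leaves out carbon tetrachloride replicate 3, and ran from 1 to 2 without single arrays. The 6 members with groups apart became 4 to 8 under settings with all arrays and 7 to 17 without single arrays. Smaller groups overlap less often, and the share of all transcripts under these settings is not given. These counts are therefore not read as a result about the members. The median difference ran from -0.04 to 0.01. For scale, the median level of the standard genes on an array had a pooled SD of 0.0603 log2 between rats of a group. That is the spread of a level and not of a difference between groups. The share of members lower was 75% with normexp, 73.8% with quantile normalization and 60.0% with median scaling, against 65.0%. With the replicate block the median was -0.02 and 0 members passed. Rpl30l3 turned to -0.33 with the slide block and within slide 1 and ran from -0.35 to 0.74 without single arrays. Rpl19 ran from -0.42 to 0.0063 without single arrays and was 0.064 with the second brightest probe of members. The alternatives for the second probe, for standard members only and for the bound of Rpl39l1 were chosen after seeing the data. Dim probes such as Rpl39l1, at or under background in treated rats, have no reliable fold.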
